A study of Mus musculus with 51 samples.

Results

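The regions described here were 7651 peaks of H3K27ac that were present in late astrocytes (lA), absent from both earlier stages, and already marked by H3K4me1 in the progenitors. They were chosen by the peak calls themselves, as lA H3K27ac peaks on chromosomes 1 to 19 that overlapped no H3K27ac peak of the progenitors (aNPC) or the early astrocytes (eA) and that overlapped an aNPC H3K4me1 peak by at least 1 bp. They made up 8.45% of the 90545 lA H3K27ac peaks on these chromosomes (95% Wilson interval 8.27 to 8.63) and 30.5% of the 25084 lA-only peaks (29.9 to 31.1). The other 17433 lA-only peaks lacked aNPC H3K4me1 and served as the comparison. A second comparison used 14121 lA peaks with aNPC H3K4me1 that had carried H3K27ac since eA but not in aNPC, and it was added after the lists had been examined. The absence of H3K27ac at aNPC and eA and the presence of H3K4me1 at aNPC are therefore properties of the choice and not results.

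All cells descended from mouse embryonic stem cells of the C57/BL-6 background and carried no knockdown. The aNPC were neural precursors grown in DMEM-F12 with N2, EGF and FGF-2, and eA and lA were the same precursors after 1 and 5 days in DMEM with 1% FBS and LIF. Each mark was sequenced in 2 replicates per stage by chromatin immunoprecipitation, but the authors merged the replicates before they called peaks, so each of the 6 lists stands for 1 pooled sample. No error between cultures can be given, the read depth behind a peak is unknown here, and the tests and intervals below cover counting error over peaks only, with neighbouring peaks treated as independent although they need not be. The cultures are bulk samples, in which a mark in fewer cells and a weaker mark in all cells cannot be told apart. The promoters of Gfap, Aldoc, Slc1a3, Glul and Sox9, genes of astrocytes and their precursors, carried H3K27ac at lA, those of Aqp4 at lA alone, and those of Aldh1l1 and S100b did not. At lA, H3K27ac lay on 20 of 30 promoters of the astrocyte list, 20 of 27 of the progenitor list, 9 of 35 neuronal, 3 of 17 oligodendrocyte, 3 of 18 mesenchymal and mural and 3 of 19 microglial and endothelial promoters, beside 48.9% of all coding genes. On the astrocyte list the count was 21 at aNPC and 23 at eA, so the lA count marks no gain.

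An enhancer is a stretch of DNA that raises the transcription of a gene from a distance. Its nucleosomes commonly gain monomethylation of histone H3 lysine 4 (H3K4me1) before the gene is switched on, a state called primed, and acetylation of lysine 27 (H3K27ac) when the enhancer becomes active. In the brain, progenitors of astrocytes can carry such marks near genes that the cells will use later, and signals of the LIF and BMP families drive the astrocyte fate.

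Windows of 200 bp around the summits of 8 regions show what kind of sequence gained H3K27ac. They belong to the strongest regions, outside annotated exons, given to a gene of the astrocyte, JAK-STAT, AP-1, RUNX and NFI, BMP and TGF-beta, and Hippo lists in this order, followed by the strongest and the third strongest of all. Each is the plus strand of mm9, and capitals mark a match to 1 of 15 short motifs that are described with the motif counts. The Sox9 window held a C/EBP match, the Lifr window an E-box, the Runx1t1 window an NF1 half-site and the Tgfbr3 window a RUNX match, whereas the Jdp2, Cyr61, Ifnk and Syn3 windows held none.
Sox9, chr11:112662395-112662594: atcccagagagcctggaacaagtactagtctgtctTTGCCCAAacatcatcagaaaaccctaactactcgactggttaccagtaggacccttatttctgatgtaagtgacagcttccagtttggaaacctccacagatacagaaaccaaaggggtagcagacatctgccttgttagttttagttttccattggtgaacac
Lifr, chr15:7049253-7049452: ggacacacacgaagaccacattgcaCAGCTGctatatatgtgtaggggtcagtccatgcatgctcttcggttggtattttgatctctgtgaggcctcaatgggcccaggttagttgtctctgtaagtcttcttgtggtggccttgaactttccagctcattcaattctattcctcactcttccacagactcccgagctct
Jdp2, chr12:86946395-86946594: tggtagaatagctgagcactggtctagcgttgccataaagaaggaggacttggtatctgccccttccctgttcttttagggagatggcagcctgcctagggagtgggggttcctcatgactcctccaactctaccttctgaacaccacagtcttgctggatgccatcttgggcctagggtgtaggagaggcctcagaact
Runx1t1, chr4:13772295-13772494: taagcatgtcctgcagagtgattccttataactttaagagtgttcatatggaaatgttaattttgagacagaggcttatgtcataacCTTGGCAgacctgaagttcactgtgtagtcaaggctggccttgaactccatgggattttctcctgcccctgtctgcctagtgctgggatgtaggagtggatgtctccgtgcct
Tgfbr3, chr5:107706558-107706757: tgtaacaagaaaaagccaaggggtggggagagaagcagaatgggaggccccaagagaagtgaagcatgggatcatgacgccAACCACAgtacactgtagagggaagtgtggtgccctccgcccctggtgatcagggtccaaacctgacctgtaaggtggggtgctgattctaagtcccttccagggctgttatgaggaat
Cyr61, chr3:145325202-145325401: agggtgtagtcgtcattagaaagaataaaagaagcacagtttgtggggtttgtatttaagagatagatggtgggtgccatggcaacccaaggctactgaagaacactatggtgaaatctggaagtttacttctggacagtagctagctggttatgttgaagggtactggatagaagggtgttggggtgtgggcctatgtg
Ifnk, chr4:34997116-34997315: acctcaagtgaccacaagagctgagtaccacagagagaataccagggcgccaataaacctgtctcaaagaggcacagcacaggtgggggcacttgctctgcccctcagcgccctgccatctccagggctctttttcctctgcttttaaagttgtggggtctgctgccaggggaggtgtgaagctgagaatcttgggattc
Syn3, chr10:85908664-85908863: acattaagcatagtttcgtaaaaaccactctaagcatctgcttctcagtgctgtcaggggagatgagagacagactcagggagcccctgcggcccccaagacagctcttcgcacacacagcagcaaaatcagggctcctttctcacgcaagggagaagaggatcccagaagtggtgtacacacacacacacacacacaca

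The regions were narrow and weak among the lA H3K27ac peaks. Their median width was 287 bp (quartiles 221 and 404), against 430 bp over all lA peaks. Their median −log10 q, the significance that the peak caller gave the summit, was 5.20 with quartiles 3.95 and 7.09 and a range from 1.67 to 32.1. This put the median region at percentile 25.9 of the lA list, and its fold over the local background was 3.34 (quartiles 2.91 and 3.88). The other lA-only peaks had nearly the same values, with a median width of 272 bp, −log10 q of 5.13 and fold of 3.32, so the 2 kinds of lA-only peak can be compared at like strength. The peaks acetylated since eA were wider, at 497 bp, and had a median −log10 q of 9.29. The median GC content of the 200 bp windows was 48.5% in the regions, 46.5% in the other lA-only peaks and 49.0% over all lA peaks.

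The peaks on either side of the limits of the choice can be set side by side. The overlap with aNPC H3K4me1 had a median of 199 bp, and 31.1% of the regions lay wholly inside the H3K4me1 peak. In 120 regions the overlap was 10 bp or less, their median lA −log10 q was 5.21, and 92.5% had H3K4me1 at eA. Just outside, 139 other lA-only peaks lay less than 10 bp from an aNPC H3K4me1 peak and had a median −log10 q of 5.01, and 79.9% of them had H3K4me1 at eA. On the H3K27ac side, 101 regions lay less than 10 bp from an aNPC or eA H3K27ac peak and had a median −log10 q of 4.17, whereas 90 lA peaks with aNPC H3K4me1 were left out for an overlap of at most 10 bp and had a median of 5.03.

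H3K4me1 remained at nearly all of these regions through the differentiation. At eA, where H3K27ac was still absent by the rule, 7254 of the 7651 regions overlapped an H3K4me1 peak, which is 94.8% (94.3 to 95.3). The share over all lA H3K27ac peaks was 80.9%. Among the other lA-only peaks it was 46.0% (45.3 to 46.8), a difference of 48.8 percentage points (95% Newcombe interval 47.9 to 49.7; two-sided Fisher's exact test, p below 1e-300, the smallest value written). At lA, 6992 regions overlapped H3K4me1, which is 91.4% (90.7 to 92.0), against 82.6% of all lA peaks and 65.6% (64.8 to 66.3) of the other lA-only peaks. The difference at lA was 25.8 points (24.9 to 26.8; Fisher's exact test, p below 1e-300). The choice had divided these peaks by the same mark at aNPC, so differences in this direction follow in part from it. They are no test of whether the regions kept the mark. Among the peaks acetylated since eA, which also had aNPC H3K4me1, the share at eA was 97.0%.

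The 2 kinds of lA-only peak drew closer in their share with H3K4me1 between eA and lA. The choice had set these shares as far apart as possible at aNPC, so an approach follows in part from it. The share with H3K4me1 went from 46.0% to 65.6% in the other lA-only peaks, while in the regions it went from 94.8% to 91.4%. Of the regions, 6738 (88.1%, 87.3 to 88.8) had H3K4me1 at both stages, 516 (6.74%) at eA but not lA, 254 (3.32%) at lA but not eA and 143 (1.87%) at neither. The share at lA minus that at eA was −3.42 points, and −0.870 points among the 3906 regions more than 1 kb from every aNPC and eA H3K27ac peak. Each share comes from 1 pooled list, so the difference between the stages has no replicate error and no test. The 254 regions that had H3K4me1 at aNPC and lA but not at eA rested on weak aNPC peaks, at a median percentile of 23.1 of the aNPC list, against 54.0 for the regions marked throughout.

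**Figure D1:**
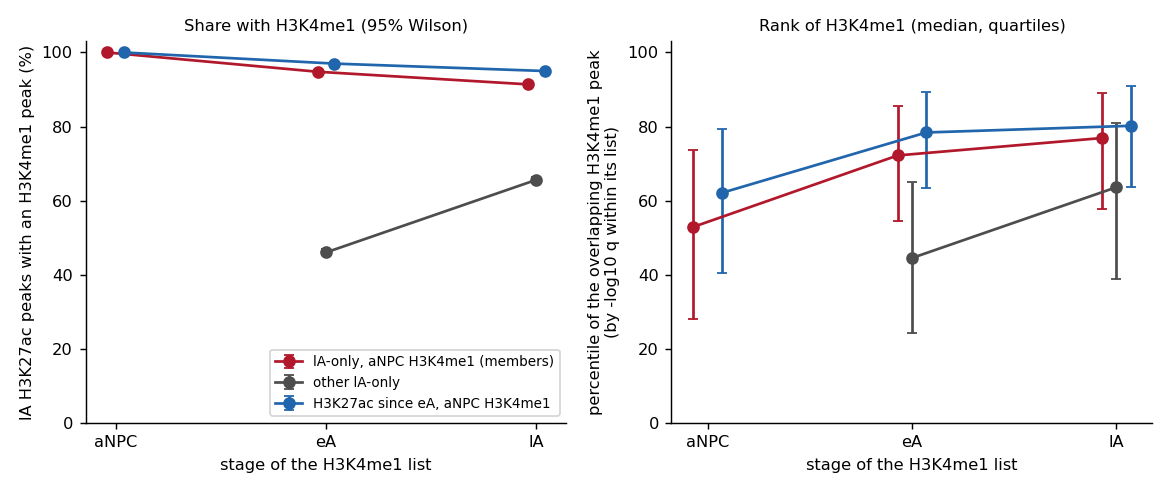
Left, share of lA H3K27ac peaks that overlap an H3K4me1 peak in the list of each stage, with 95% Wilson intervals, for the 7651 regions (red), the other 17433 lA-only peaks (grey, 0 at aNPC by the rule and not drawn) and the 14121 peaks acetylated since eA with aNPC H3K4me1 (blue). Right, median and quartiles of the percentile of the overlapping H3K4me1 peak within its own list; the red medians are 52.9 at aNPC, 72.2 at eA and 76.9 at lA, in lists that grow longer in this order.

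The strength of the H3K4me1 peaks at the regions is given as the percentile within each list, because −log10 q depends on depth, and with no test, since each stage is 1 pooled list. The median percentile was 52.9 at aNPC, 72.2 at eA and 76.9 at lA. The lists held 150527, 181227 and 203377 peaks, and the weak peaks of a longer list raise the percentile of the others. Ranks were therefore also counted from the top of each list on the scale of the shortest, an alternative chosen after the data were seen. On this scale the 6738 regions marked at all 3 stages had medians of 54.0 at aNPC, 67.6 at eA and 69.8 at lA. The median difference from aNPC to eA was then 8.23 points, against 13.6 in plain percentiles, and that from eA to lA was 0.779 points, against 2.71. The peaks acetylated since eA had like values, with 8.62 points for the first step and −1.13 for the second. The second step was −0.852 points over all lA H3K27ac peaks and 16.0 points in the other lA-only peaks, so in this respect the regions were near lA peaks in general. The overlapping H3K4me1 peaks had a median width of 589 bp at aNPC, 867 bp at eA and 861 bp at lA. The summit of H3K27ac was covered by the H3K4me1 peak in 69.5% of the regions at aNPC, 88.9% of those marked at eA and 88.3% of those marked at lA.

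Against peaks that had gained H3K27ac by eA, also from H3K4me1 in aNPC, the regions kept H3K4me1 slightly less often. At eA the share was 97.0% in those peaks, and the regions differed from them by −2.24 points (−2.82 to −1.68; Fisher's exact test, p = 4.24e-16). At lA 13409 of the 14121 peaks had H3K4me1, and the difference was −3.57 points (−4.31 to −2.86; Fisher's exact p = 3.62e-24). Those peaks were wider, and a wide peak meets others more easily. The part of width in these differences was not tested. When 50% of a peak had to be covered, the eA difference was −0.464 points (Fisher's exact p = 0.165) and the lA difference −1.36 points (Fisher's exact p = 0.00298).

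Seen from the progenitors, primed sites that stayed without H3K27ac through eA and gained it at lA kept H3K4me1 more often than those that did not gain it. Of 150527 aNPC H3K4me1 peaks, 72926 carried no H3K27ac at aNPC or eA, and 5214 of these (7.15%, 6.96 to 7.34) overlapped one of the regions. H3K4me1 was found at eA on 94.7% of the 5214 and on 71.3% of the 66872 that had no H3K27ac at lA, the rest of the 72926 having other lA H3K27ac, beside 73.2% of all 72926. The difference was 23.4 points (22.7 to 24.1; Fisher's exact test, p below 1e-300). At lA the shares were 92.7% and 56.3%, beside 59.2% of all 72926, a difference of 36.4 points (35.6 to 37.2; p below 1e-300). This comparison was chosen after the lists had been examined. The aNPC H3K4me1 peaks under the regions had a median width of 589 bp, against 472 bp over the aNPC list. A wide peak meets later peaks of both marks more easily. The part of width in these differences was not tested, here or within the classes of −log10 q.

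The aNPC peaks that gained H3K27ac were also stronger at aNPC, so the comparison was repeated within 4 classes of their −log10 q, which ranged up to 4.59 in the lowest and from 10.9 in the highest. The share that gained an lA-only H3K27ac peak was 5.40% in the lowest class, 5.96% in the second, 7.01% in the third and 10.4% in the highest (9.92 to 10.8). In the lowest class, 87.5% of the gaining and 52.3% of the other peaks had H3K4me1 at eA, and 87.5% and 43.2% had it at lA. In the highest class the shares at eA were 99.4% and 94.8%, and the shares at lA were 97.0% and 77.1%. The differences had the same direction in each class, from 4.58 to 35.2 points at eA and from 19.8 to 44.3 points at lA.

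**Figure D2:**
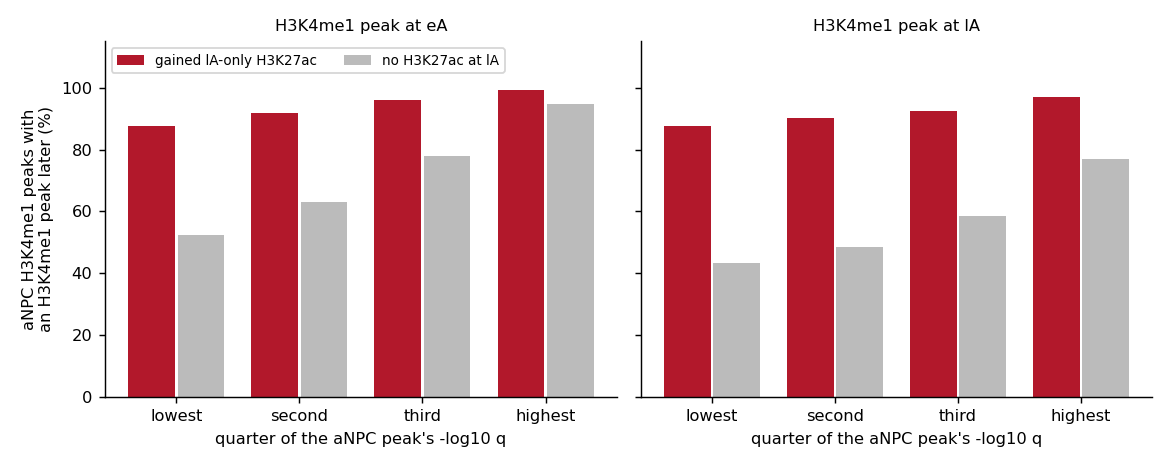
Share of aNPC H3K4me1 peaks without H3K27ac at aNPC or eA that had an H3K4me1 peak at eA (left) or lA (right), by class of the aNPC peak's −log10 q. Red bars are peaks that gained an lA-only H3K27ac peak and grey bars are peaks with no H3K27ac at lA; red exceeds grey in each of the 4 classes, by 44.3 points at lA in the lowest and 19.8 in the highest.

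A large part of the regions arose beside H3K27ac that was already there. The nearest aNPC or eA H3K27ac peak lay at a median of 1167 bp, against 3905 bp for the other lA-only peaks. Within 1 kb of such a peak were 3745 regions (48.9%) and 6276 of the other lA-only peaks (36.0%). Within 0.5 kb of an aNPC H3K27ac peak lay 20.1% of the regions and 6.87% of the other lA-only peaks, and within 0.5 kb of an eA peak 33.2% and 23.2%. Over 10 kb from both were 1685 regions (22.0%) and 5224 of the 17433 other lA-only peaks. The aNPC H3K4me1 peak under a region also overlapped an aNPC H3K27ac peak elsewhere along its length in 1247 regions (16.3%, 15.5 to 17.1), and in 5323 regions (69.6%, 68.5 to 70.6) it overlapped neither an aNPC nor an eA H3K27ac peak. H3K4me1 peaks often surround acetylated sites, and these distances are given with no test.

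**Figure D3:**
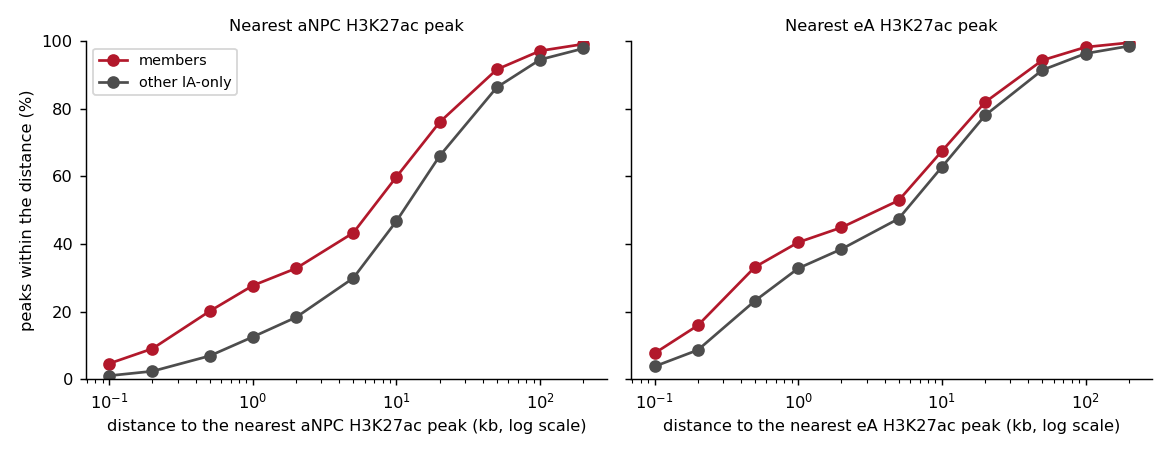
Cumulative share of the 7651 regions (red) and the 17433 other lA-only peaks (grey) by distance to the nearest H3K27ac peak of aNPC (left) and eA (right), in kb on a log scale. At 0.5 kb the red curve stands at 20.1% for aNPC and 33.2% for eA, and the grey curve at 6.87% and 23.2%.

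Most of the regions were distal. By the position of the centre, 3588 (46.9%) lay in introns, 3635 (47.5%) between genes, 188 (2.46%) in exons and 240 (3.14%, 2.77 to 3.55) at promoters, meaning the 1 kb before and the first 100 bp after a coding start site. The promoter share was 1.89% in regions over 1 kb from earlier H3K27ac, and 6.91% when the 1 kb before and after every annotated start site counted. Of all lA H3K27ac peaks, 9.76% were at promoters. The promoter share was 1.23% in the other lA-only peaks, with an interval of 1.07 to 1.40 and 1.91 points below the regions (odds ratio 2.61; Fisher's exact test, p = 1.93e-23). The median distance to the nearest coding start site was 36189 bp in the regions and 46666 bp in the other lA-only peaks. On each of the 19 chromosomes the regions numbered between 2.53 per Mb (chromosome 5) and 3.91 per Mb (chromosome 9), and they were 24.3% of the lA-only peaks on chromosome 3 and 36.5% on chromosome 11. When neighbours were joined, with the widest gap inside a group at 12493 bp, they fell into 6540 groups, of which 5587 held a single region and 953 held 2 or more. The largest group, of 6 regions over 31.3 kb on chromosome 2, lay at Sulf2, which encodes an enzyme that trims heparan sulfate outside the cell, and groups of 5 lay at Angptl2, Rbms3 and Trim29.

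Each region in a promoter, exon or intron, or within 50 kb of a coding start site, was given to the gene of the nearest start site. This gave 5699 regions (74.5%) to 3635 genes, which is 17.1% of the 21275 coding genes and 25.5% of the 14244 genes given any lA H3K27ac peak. Of these genes, 2398 had 1 region, 780 had 2 and 457 had 3 or more. Long genes have more room for introns, and the median length was 42.4 kb for genes with a region and 13.2 kb for those without, so the counts below are not adjusted for length. Most promoters of these genes were acetylated throughout: 56.0% had H3K27ac at all 3 stages, against 43.7% of the genes given no region.

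The genes with the most regions were mostly long ones, up to 1221 kb for Park2. Tgfbr3, a co-receptor for TGF-beta ligands, Opcml, an adhesion protein of neurons, and Magi1, a scaffold of cell junctions, had 11 each. Dab1, an adaptor of Reelin signalling, had 10. Park2, a ubiquitin ligase, Aff3 and Rbms3 had 9 each. Nrp2, a receptor for semaphorins and VEGF, D18Ertd653e and Frmd4b had 8 each, as had Runx2 and Arhgap26. Tgfbr3 spans 183 kb, against 1135 kb for Opcml and 1125 kb for Dab1. Of the 8 regions given to Nrp2, 6 lay in introns of its neighbour Pard3b, so the nearest start site need not be the target.

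The Tgfbr3 regions carried H3K4me1 at every stage. Its 11 regions all overlapped H3K4me1 at eA and at lA, and 8 lay more than 1 kb from aNPC and eA H3K27ac. The strongest had a −log10 q of 20.4 and a fold of 4.88 and is the window printed above, 12.1 kb from a start site in an intron of the gene. Its H3K4me1 peak stood at percentile 49.5 at aNPC, 77.1 at eA and 89.1 at lA. The next, at −log10 q 10.8, rested on a weak aNPC peak at percentile 12.3 that stood at 77.9 at eA and 95.8 at lA. The weakest H3K4me1 was at the region 3′ of the gene, at percentiles 2.51, 4.12 and 0.103. The gene and 50 kb on each side held 32 lA H3K27ac peaks, 19 at eA and 11 at aNPC, and 37, 46 and 50 H3K4me1 peaks at aNPC, eA and lA.

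Runx2, a transcription factor of the RUNX family best known from bone, gained H3K27ac at one of its own start sites. The promoter region, chr17:44951488-44951760, had a −log10 q of 10.8 and a fold of 5.30 and lay 36393 bp from the nearest aNPC H3K27ac peak and 36481 bp from the nearest at eA. H3K4me1 there stood at percentile 12.3 at aNPC, 74.2 at eA and 88.2 at lA. The peak also lies within the annotated span of Supt3h, and another part of the annotated Runx2 promoters carried H3K27ac at all 3 stages. Of the other 7 regions given to Runx2, 6 lay in its introns and 1 in an intron of Supt3h, with −log10 q between 1.93 and 8.21. H3K4me1 was present at 7 of the 8 regions at eA and 6 of the 8 at lA, and the exception at both stages lay 79.5 kb from the nearest start site.

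**Figure D4:**
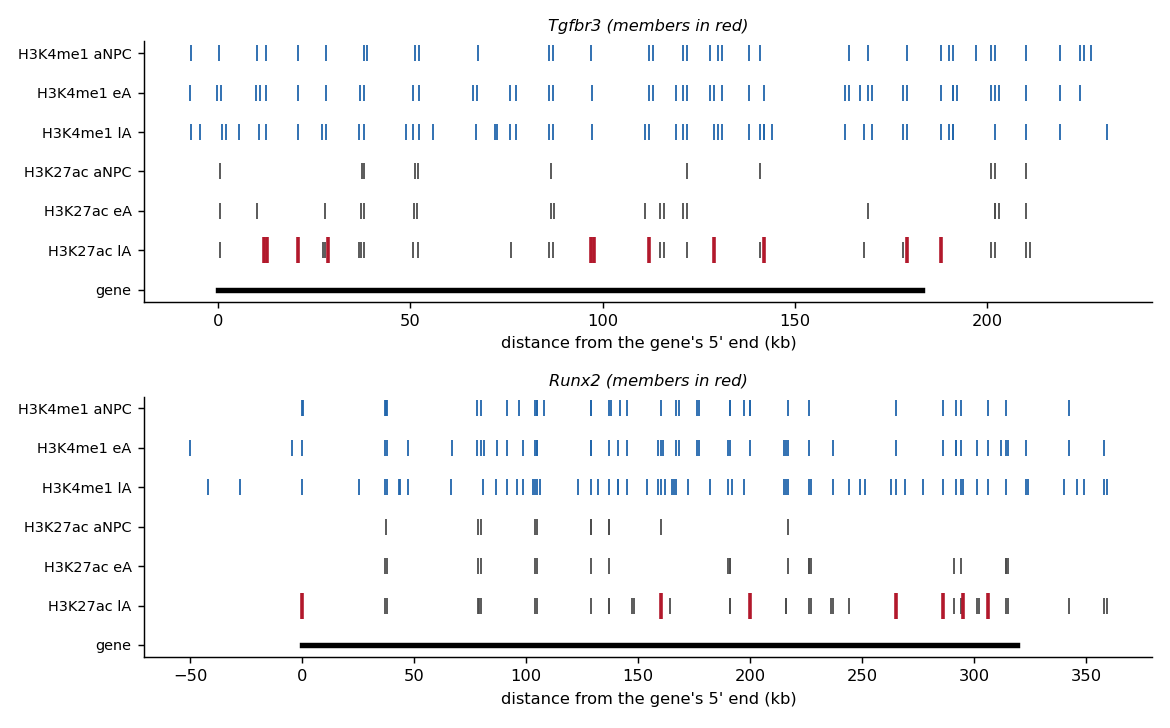
Peaks of the 6 lists around Tgfbr3 (top) and Runx2 (bottom), by distance in kb from the gene's 5′ end, with H3K4me1 peaks in blue, H3K27ac peaks in grey, the lA-only regions in red and the gene as a black bar. Tgfbr3 shows 11 red marks and Runx2 shows 7, 1 of them at its start, since the eighth lies beyond the plotted range.

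Against the share of 17.1% over all coding genes, the lists of related genes ranged from 11.8% to 70.0%. These lists were chosen with earlier results of these data known, they are described by counts without a test, and the median gene of 11 of the 13 lists had no region. The RUNX and NFI list, of DNA-binding factors with partners, had regions at 7 of 10 genes, 15 in all. Besides Runx2, Runx1t1 had 2 regions, with −log10 q up to 11.6, and Cbfa2t3, another co-repressor of that family, had 1 at 8.25. Nfib and Nfia, the nuclear factor I proteins of gliogenesis, had 1 intronic region each, at 7.10 and 5.39. The Nfib region lay 355 bp from an aNPC H3K27ac peak and the Nfia region 425 bp from an eA H3K27ac peak. H3K4me1 at the Nfia region stood at percentiles 31.5 at aNPC, 63.6 at eA and 4.41 at lA. Other lA-only peaks were given to 8 of these 10 genes and to 24.9% of all coding genes. The genes of this list are long, with a median of 125 kb against 15.6 kb over all coding genes.

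Genes of the BMP and TGF-beta pathway, in which ligands bind paired receptors that activate Smad proteins, had regions at 15 of 35 (42.9%), 40 in all. Other lA-only peaks were given to 24 of these genes (68.6%), and the median gene length was 61.1 kb. After Tgfbr3 the most fell to Ltbp1, which holds latent TGF-beta in the matrix, with 6 regions up to a −log10 q of 10.8, and to Smad6, an inhibitory Smad, with 5 up to 5.57. None of the 5 Smad6 regions was more than 1 kb from aNPC and eA H3K27ac. Id3, a target of BMP signalling, had 2 regions, the stronger at 9.19 and 1 bp from an eA H3K27ac peak. H3K4me1 was present at eA on 39 of the 40 regions of this list and at lA on 37.

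Of the AP-1 and ATF genes, which encode the leucine zipper factors of immediate responses, 8 of 17 (47.1%) had regions, 14 in all. Jdp2, a repressor that pairs with Jun, had 4, with −log10 q from 3.15 to 7.23, and H3K4me1 was missing at both later stages from the strongest of them. Atf3 had 2 regions at −log10 q 4.89 and 5.64, whose H3K4me1 stood at percentiles 7.43 and 47.1 at aNPC and at 69.3 and 92.6 at eA. Mafg and Fos had 2 each, up to 5.51 and 5.44. Other lA-only peaks were given to 5 of these 17 genes (29.4%), near the 24.9% of all coding genes.

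The LIF and JAK-STAT list, of the cytokine pathway that the medium stimulates, had regions at 7 of 26 genes (26.9%), 1 each. The strongest was at Lifr, the LIF receptor, with a −log10 q of 9.51, 30.2 kb from its start site, where H3K4me1 stood at percentiles 59.7, 91.2 and 95.5 at aNPC, eA and lA. It lay 200 bp from an aNPC and 339 bp from an eA H3K27ac peak. Jak2, a kinase bound to cytokine receptors, had 1 at 9.49, 19284 bp or more from earlier H3K27ac, and Jak1 had 1 at 8.03, at least 11012 bp away. Socs3, the feedback inhibitor of the pathway, had 1 at 7.64, 452 bp from an aNPC H3K27ac peak. With intergenic peaks given to a gene only within 20 kb, the count of genes was 2 of 26, beside 14.9% of all coding genes. At 50 kb, 11 of the 26 genes (42.3%) were given other lA-only peaks.

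Of the astrocyte genes, 9 of 30 had regions, 12 in all, and each of the 12 carried H3K4me1 at eA and at lA. Sox9, a transcription factor of glial fate, had 2 regions, the stronger at −log10 q 10.6 and 16.5 kb from the start site, with H3K4me1 at percentile 91.7 at aNPC and 94.8 at eA. Fam107a had 2 up to 9.01, Glul, the glutamine synthetase, had 2 up to 4.37, and Fgfr3, a growth factor receptor, had 1 at its promoter at 6.77. The Fgfr3 region lay 274 bp and the Glul regions 220 and 137 bp from an eA H3K27ac peak. The promoters of Fgfr3 and Glul carried H3K27ac at every stage. Of 6 marker genes examined one by one, Cd44, the hyaluronan receptor, had 1 region, in an intron at −log10 q 6.11, 409 bp from an eA H3K27ac peak. No region was given to Gfap, Aqp4, Aldh1l1, Aldoc or S100b, although 1 given to another gene lay within 50 kb of Aldh1l1. Within 50 kb of Gfap, 12 of 14 lA H3K27ac peaks had been present by eA, and within 50 kb of Aqp4, 15 of 19. No lA-only peak lay within 50 kb of Aldoc or S100b.

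Genes of the matrix and adhesion list had regions at 20 of 35 (57.1%), 33 in all, of which 24 lay more than 1 kb from aNPC and eA H3K27ac. Other lA-only peaks were given to 27 of these genes (77.1%), and the median gene length was 77.1 kb. Lama2, a laminin chain, had 4 intronic regions with −log10 q of 5.73, 8.01, 15.8 and 20.6. The 2 strongest rested on 1 aNPC H3K4me1 peak at percentile 1.10, which was at 70.1 at eA and 81.2 at lA. Postn, a matricellular protein, had 3 regions with −log10 q up to 13.9, each at least 68706 bp from earlier H3K27ac. Loxl2, a collagen cross-linking enzyme, had 3 up to 7.41, and Col4a2, a basement membrane collagen, had 2 up to 9.07.

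Reactive and inflammatory genes had regions at 7 of 29 (24.1%), 14 in all. Il6, a cytokine that acts through the same receptor chain as LIF, had 3 regions in a row over its promoter and first part, at −log10 q 8.50, 7.86 and 11.1. They lay over a single aNPC H3K4me1 peak at percentile 93.7 and 14710 bp or more from any earlier H3K27ac, and the Il6 promoter carried H3K27ac at lA and not before. Ptx3, a secreted pattern recognition protein, had 5 up to 6.81, of which 4 lay in introns of Veph1. Nfkb1 had 2 up to 13.0 and Ccl2 had 1 at 5.92. Of the 29 reactive and inflammatory genes, 15 (51.7%) were given other lA-only peaks. The Hippo list had regions at 5 of 17 genes (29.4%), with 2 each at Cyr61, Vgll4 and Ctgf 1 at Amotl2 and none above 5.73. Other lA-only peaks were given to 14 of its 17 genes, beside 24.9% of all coding genes, and its median gene length was 47.4 kb.

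The lists of other cell types ranged from 11.8% to 48.1%. The shares given other lA-only peaks were 48.1% of the neural progenitor, 25.7% of the neuronal and 29.4% of the oligodendrocyte genes. For the mesenchymal and mural list this share was 44.4% and for the microglial and endothelial list 31.6%, beside 24.9% of all coding genes. Neural progenitor genes had regions at 13 of 27 (48.1%), led by Msi2 with 2 up to 10.7, Ccnd1 with 2 up to 6.46, and Gli3 and Fgfr1 with 2 each. Neuronal genes had regions at 5 of 35 (14.3%), among them Snap25 with 3 up to 4.89 and Celf4 with 1 at 11.1. Oligodendrocyte genes had them at 2 of 17 (11.8%), Enpp6 with 4 and Nkx6-2 with 1, and at 4 of 17 when intergenic peaks were given a gene up to 100 kb away, beside 18.4% of all coding genes. Mesenchymal and mural genes had them at 7 of 18 (38.9%), with Pdgfrb at 10.9, and microglial and endothelial genes at 4 of 19 (21.1%), with Tek at 13.0 and Pecam1 at 10.8. Of the 11 genes with regions in the last 2 lists, the promoters of Des, Pdgfrb, Col3a1, Anpep, Pecam1, Cdh5 and Tek carried no H3K27ac at any of the 3 stages. The Twist1 promoter carried it at all 3, that of Foxc1 at aNPC and eA, that of Notch3 at eA and that of Erg at lA.

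The sequences of the regions differed in few motifs from those of the other lA-only peaks. Within the 200 bp around the summit, the following letters were matched on both strands, with matches of different motifs counted separately where they shared bases: AP-1 TGANTCA, CRE TGACGTCA, NF1 half-site TGCCAAG, RUNX TGTGGTT, STAT TTCCNGGAA, TEAD GGAATG, SOX ACAATG, forkhead TGTTTAC, E-box CAGCTG, LHX TAATTAG, POU ATGCAAAT, NF-kappaB GGANTTTCC, C/EBP TTGCNNAA, RBPJ GTGGGAA and the CTCF core AGGGGGC. The E-box, bound by bHLH factors, was in 13.6% of the regions (12.9 to 14.4), in 10.8% of the other lA-only peaks and in 12.3% of all lA peaks, a difference of 2.88 points between the 2 kinds of lA-only peak (1.99 to 3.79). Stratified by GC content, the difference was 1.55 points (0.658 to 2.45). The NF1 half-site was in 4.98% of the regions, 4.10% of the other lA-only peaks and 4.26% of all lA peaks, and its difference was 0.878 points (0.322 to 1.46), or 0.739 points with GC content held (0.165 to 1.31). In windows of 500 bp the differences were larger, at 7.28 points for the E-box (6.09 to 8.48), 2.73 for the NF1 half-site (1.86 to 3.62) and −1.97 for AP-1 (−2.99 to −0.933). Differences in the 500 bp windows were not stratified by GC content, and a wider window holds any motif more often. Among lA peaks with a −log10 q of at least 5, the interval of the NF1 half-site included 0, at 0.319 points (−0.376 to 1.06), as did that of AP-1, at −0.774 points (−1.63 to 0.122).

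The AP-1 letters were in 6.18% of the regions, 7.10% of the other lA-only peaks and 5.68% of all lA peaks, a difference of −0.919 points (−1.57 to −0.245) whose interval included 0 with GC content held (−1.28 to 0.0544). The CTCF core was 0.606 points higher in the regions (0.180 to 1.06), and 0.0955 points with GC content held (−0.343 to 0.534). For the other 11 motifs the interval of the unstratified difference included 0, and with GC content held those of SOX (1.24 points, 0.398 to 2.08) and TEAD (−1.03 points, −1.91 to −0.147) did not. The intervals are not adjusted for the 15 motifs. RUNX was in 4.51% and 4.30% and STAT in 0.627% and 0.815% of the 2 kinds of lA-only peak. Against the peaks acetylated since eA, the E-box was 1.07 points higher in the regions (0.133 to 2.02; 0.869 with GC content held, −0.0673 to 1.80) and SOX 0.856 points higher (0.00474 to 1.73; 0.931 with GC content held, 0.0721 to 1.79). The differences of AP-1 and the NF1 half-site were −0.0638 points (−0.725 to 0.619) and 0.0226 points (−0.572 to 0.639). Counting the AP-1, NF1, RUNX, STAT and TEAD letters together, 5699 regions (74.5%) held none, 1765 (23.1%) held 1 and 187 held more. A match is a run of letters and not evidence of binding.

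**Figure D5:**
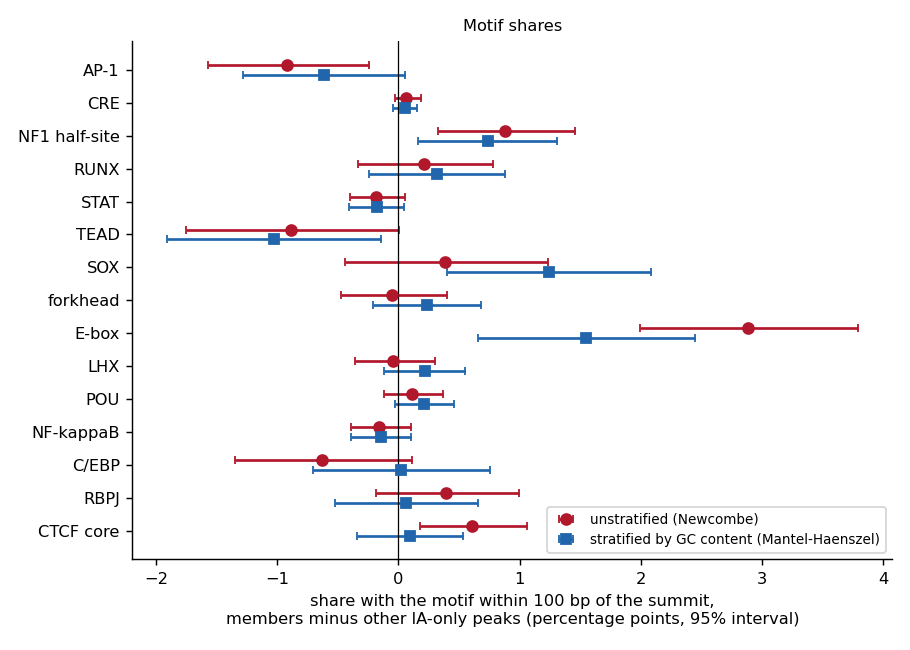
Difference in the share of 200 bp windows with each motif, the 7651 regions minus the 17433 other lA-only peaks, in percentage points with 95% intervals, unstratified (red circles) and stratified by GC content (blue squares). The E-box lies at 2.88 points unstratified and 1.55 stratified, the NF1 half-site at 0.878 and 0.739, and most other intervals cross 0.

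The 10 strongest H3K27ac regions and the 5 with the strongest aNPC H3K4me1 were different regions. How the strengths of the marks relate over all regions was not tested. The 10 highest had −log10 q between 24.2 and 32.1, and the percentile of their aNPC H3K4me1 peak ranged from 1.10 to 85.0. The highest, chr4:34996524-34998143, lay in an intron of Mob3b, 102 kb from the start site of Ifnk, the nearest coding gene by start site, and its aNPC H3K4me1 peak at percentile 17.8 covered 179 of its 1620 bp. H3K4me1 there stood at percentile 10.3 at eA and 67.3 at lA. Of the others, those of Syn3 and Spg20 lay in introns of these genes, and those with Gm6133 and Scaf8 as the nearest start site lay 22.2 and 33.3 kb from it. The remaining 5 lay between genes and beyond the 50 kb limit, at 97.0 kb from Tns3, 129 kb from Rin2, 160 kb from Fndc3a, 417 kb from Zfat and 948 kb from 1700018B24Rik. The region upstream of Scaf8 lay over an lA H3K4me1 peak with a −log10 q of 349, far above the list's median of 8.91. Conversely, the 5 regions with the strongest aNPC H3K4me1, all at percentile 99.9, had H3K27ac at −log10 q of 2.67 to 7.17. Of these, 1 lay in an exon of Scd4 and 1 in an exon of Slc9a8, 17.4 kb from the start site of Rnf114. The other 3 lay between genes, 38.1 kb from Laptm5, 74.0 kb from Odf3l1 and 220 kb from C130026L21Rik. Each was within 296 bp of an eA H3K27ac peak, and at those given here with Rnf114 and C130026L21Rik H3K4me1 was not called at lA.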

How the data were processed

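ChIP-seq of H3K27ac and H3K4me1 covered aNPC, eA and lA, with 2 replicates each. The authors aligned reads uniquely to mm9 with Bowtie, merged the replicates of a stage with SAMtools 0.1.19 and called peaks with MACS2 at default settings without an input control. The fold of a deposited peak is the ratio of reads at its summit to the local background that MACS2 estimated. The deposited −log10 q-value belongs to the summit and was compared only within a list, as such or as percentiles. The other samples of the series, of 51 in all, were not used here.

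Overlap meant at least 1 bp. Start sites, exons and introns came from GENCODE M1 (mm9), and a symbol annotated under 2 identifiers counted as 1 gene. Shares have 95% Wilson intervals, and differences have Newcombe intervals or, with GC content held in 5% steps, Mantel-Haenszel intervals. Shares of different peaks were compared by two-sided Fisher's exact tests. Shares of the same peaks at 2 stages are given without a test, because each stage is 1 pooled list. Python 3.11.15, SciPy 1.17.1, pandas 2.3.3, pysam 0.24.0, bedtools 2.31.1, samtools 1.23.1 and matplotlib 3.10.9 were used, and overlaps, distances and motif shares were tested on simulated data. The members and the gene lists were chosen with earlier results of these data known. Genes were named by a rule: up to 4 per list with the most regions, ties going to the higher −log10 q, the 10 with the most regions overall and those of equal count, the 10 strongest regions, the 5 with the strongest aNPC H3K4me1, and 6 astrocyte markers. Nfia, the genes of the largest groups and further genes whose promoters are described were named after their values were seen. Alternatives varied peak strength, list length, overlap, isolation, chromosomes, promoter and gene distance, motif window and GC content.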

Additional observations from a re-analysis of the deposited data

How the results depend on the processing

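No paired analysis was possible because the authors called each peak list on merged replicates, and for the same reason no replicate could be left out. The number of regions was 4241 with lA peaks of −log10 q of at least 5 and 3906 with regions more than 1 kb from aNPC and eA H3K27ac, and it stayed between 5514 and 8848 under the other settings. The share more than 1 kb from earlier H3K27ac was 51.1%, and it became 60.9% without regions whose aNPC H3K4me1 peak overlapped aNPC H3K27ac, 52.7% with strong lA peaks, 58.4% with strong peaks in all lists, 53.3% with lists of equal length, 32.4% with the summit rule and 30.2% with the rule that covers 50% of the peak. The lA minus eA difference of H3K4me1 was −0.870 points in regions over 1 kb away, and −2.17 to −6.69 points elsewhere, and the cause was not tested. The differences from the other lA-only peaks kept direction and call under each setting, from 45.3 to 53.4 points at eA, 22.5 to 30.7 at lA and 1.04 to 3.45 for promoters. Those of H3K4me1 follow in part from the choice, which divided the peaks by this mark at aNPC. Against peaks acetylated since eA, the eA difference was −0.464 points (Fisher's exact p = 0.165) with 50% coverage. The lA difference from those peaks was −3.57 points in the main setting and −1.05 points for regions over 1 kb away, with the other settings between. Of the 15 motifs, 4 had intervals without 0, 6 in 500 bp windows, 6 in regions over 1 kb away, 4 with GC content held and 2 with strong lA peaks, namely the E-box and the CTCF core. Genes with a region numbered 3163 at 20 kb and 3921 at 100 kb. Depth, unknown here, limits which weak peaks were called: 55.4% of the regions had a −log10 q of at least 5.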
